A study of Homo sapiens with 6 samples.

Results

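TGM2, the gene of the enzyme that GK921 inhibits, and 6 genes of serotonin synthesis, uptake, breakdown and reception were followed across the 6 RNA libraries of the series. The 7 genes (TGM2, TPH1, DDC, MAOA, MAOB, SLC6A4 and HTR1D) were taken by gene symbol from a table of 20388 genes. The RNA came from MHCC-97H, a line of human hepatocellular carcinoma cells grown in serum-containing DMEM, with the genotype given as WT. For 24 h, cells received either DMSO alone as control (3 libraries) or GK921, an inhibitor of TGM2, at 2 µM (3 libraries). The series title ties TGM2 to histone serotonylation in this cancer, so the question here is what the serotonin genes of these cells did after GK921. TGM2 activity and serotonylation are not measured by these libraries. A single cell line was used. Whether replicate libraries were grown as separate cultures is not stated, and p-values then reflect only the spread among these libraries, which may be technical.

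Transglutaminase 2 is a calcium-dependent enzyme that cross-links glutamine to lysine residues of proteins. It can also attach small amines such as serotonin, dopamine and histamine to glutamine, and serotonylation of histone H3 is one such reaction. Serotonin for it comes from within the cell, by hydroxylation of tryptophan (TPH1) and decarboxylation (DDC), or from outside through transporters such as SLC6A4. Monoamine oxidases A and B, on the outer mitochondrial membrane, remove the amine, and HTR1D is a cell surface receptor that lowers cyclic AMP through inhibitory G proteins. Serotonin of the body is made mainly in enterochromaffin cells of the gut, and the liver is a site where it is broken down.

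Values are FPKM, in which fragment numbers are divided by gene length and by library size. Genes averaging 1 FPKM or more across all 6 libraries were tested with limma on log2(FPKM + 1), and a gene is called higher or lower at a Benjamini-Hochberg adjusted p under 0.05 over all 11573 tested genes. Of the 7 genes, 5 passed this limit, and TPH1 and SLC6A4 did not. In this comparison 75.9% of tested genes were called, 46.8% higher and 29.2% lower, and 78% had groups without overlapping values. Against that background, 3 calls among the 5 tested genes (DDC and MAOB lower, HTR1D higher) and 3 without overlap (TGM2, DDC and MAOB) are not a result about the set. On the log2 scale the median over all tested genes was a change of 0.16 upward, so changes are also given relative to it.

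The sources used here do not give read totals. Steps between low values put the depth of the libraries, relative to the deepest, between 0.87 and 1 in DMSO and between 0.769 and 0.865 after GK921. The liver label was checked on 12 hepatocyte and liver tumour markers. Only 4 of the 12 had a mean of at least 1 FPKM, HNF4A, KRT8 and KRT18 among them. GPC3 and APOA2 were at 0 in all libraries, and ALB, AFP, APOA1, APOB, TTR and SERPINA1 had means below 1 FPKM in both groups, so most defining markers of the labelled tissue were absent or near 0. Of 7 markers of neuroendocrine and enterochromaffin cells, the cells that specialise in serotonin, 4 were at 0 in all libraries and only SCG2 reached a mean of 1 FPKM. The summed level of that list was 0.8 to 1.4 FPKM in DMSO and 1.37 to 2.96 FPKM after GK921. Summed levels in DMSO and after GK921 were 48.5 to 52.4 and 22.6 to 28.6 FPKM for 6 fibroblast markers (mostly LUM, with COL1A1 below 1), 5.23 to 5.77 and 6.2 to 7.85 FPKM for 4 endothelial markers, 104 to 113 and 93.3 to 109.8 FPKM for 5 leukocyte markers (mostly CD68, with PTPRC below 1) and at most 0.55 and 0.03 FPKM for 4 platelet markers. The summed hepatocyte list, mostly KRT8, was 2395 to 2401 FPKM in DMSO and 1879 to 1938 FPKM after GK921. The part of these differences in the results was not tested.

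MAOA and MAOB lie next to each other on the X chromosome, and their mRNA changed unequally. In GENCODE 29 (GRCh38), MAOA runs from 43654907 to 43746824 on the plus strand and MAOB from 43766611 to 43882447 on the minus strand, so the genes point at each other and their ends are 19.8 kb apart. Their upstream sequences are shown so that the starts of this unequal pair can be compared. Each is the 250 bases before the start site in RefSeq (GRCh38.p14), 5′ to 3′ on the strand of the gene, chrX:43656049-43656298 for MAOA and chrX:43882451-43882700 for MAOB. The MAOA start in RefSeq lies inside the longer MAOA gene of GENCODE. Capitals mark the GC box GGGCGG, searched on both strands, with overlapping matches joined.
MAOA: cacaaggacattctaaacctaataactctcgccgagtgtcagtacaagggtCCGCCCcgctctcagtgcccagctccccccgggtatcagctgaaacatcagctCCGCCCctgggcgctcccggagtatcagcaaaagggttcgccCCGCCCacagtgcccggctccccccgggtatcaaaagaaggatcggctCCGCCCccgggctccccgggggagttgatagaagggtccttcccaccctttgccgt
MAOB: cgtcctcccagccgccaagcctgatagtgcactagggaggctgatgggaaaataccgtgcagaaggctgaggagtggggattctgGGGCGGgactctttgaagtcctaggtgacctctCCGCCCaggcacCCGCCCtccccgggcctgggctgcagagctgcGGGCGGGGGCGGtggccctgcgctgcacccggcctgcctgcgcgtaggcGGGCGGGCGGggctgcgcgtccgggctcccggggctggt
The MAOA stretch held 4 GC boxes and the MAOB stretch 7. Of 35116 upstream stretches of the same length, 7.63% held at least 4 and 1.12% at least 7. G and C made up 63.2% of the MAOA stretch and 72% of the MAOB stretch, and these shares were not matched for GC content. Neither stretch held TATAAA (present in 10.7% of all) or CACGTG (6.34%) on either strand. Both 250-base stretches before the DDC starts in RefSeq held no GC box. Those of TPH1, SLC6A4 and HTR1D held 0, 1 and 3. A match is a description of letters and not a measured binding site.

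TGM2 mRNA was level between the groups on the scale of the deposited values. TGM2 (chromosome 20, 38127387 to 38166578, minus strand) stood at 42.07, 42.08 and 42.12 FPKM in DMSO and at 42.62, 42.25 and 42.94 FPKM after GK921. The GK921 values all lay above the DMSO values, by a margin of well under 1 FPKM. The DMSO libraries were unusually close for TGM2, with a coefficient of variation of 0.0629% against a median of 5.63% over tested genes. On the log2 scale TGM2 changed by 0.017 ± 0.040 (SE; limma adjusted p = 0.71). The test draws the variance of each gene toward that of genes of similar level. For TGM2 this gave a wider SE than its own scatter alone would give, and the missing call rests partly on that shared variance. The 95% interval of TGM2 ran from 0.950-fold to 1.08-fold. Only 2.08% of tested genes had a smaller change in size. Relative to the median tested gene TGM2 was 0.14 lower, and with median-ratio scaling it was called lower (log2 change -0.15, limma adjusted p = 0.00642). GK921 acts on the enzyme, and mRNA does not report enzyme activity. Of its 8036 exonic bases, 394 are shared with RPRD1B on the opposite strand (32.3 ± 1.54 FPKM in DMSO and 27.9 ± 0.718 after GK921, SD, n = 3), and the sources used here do not say whether counting used strand.

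No other transglutaminase gene reached the expression limit. TGM1, the keratinocyte transglutaminase, had 0.9, 0.5 and 0.46 FPKM in DMSO and 0.48, 0.52 and 0.73 FPKM after GK921, and the groups overlapped. TGM5, TGM6, TGM7 and the clotting factor gene F13A1 were listed at 0 in all 6 libraries. TGM3, TGM4 and EPB42 had at most 0.08 FPKM in any library. TGM2 was therefore the 1 gene of this family of 9 above the expression limit.

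Serotonin synthesis was represented by DDC alone at an appreciable level, and DDC mRNA fell. DDC encodes aromatic L-amino acid decarboxylase, which turns 5-hydroxytryptophan into serotonin and L-DOPA into dopamine. It had 23.67, 18.7 and 21.2 FPKM in DMSO and 11.83, 12.18 and 12.91 FPKM after GK921. Every GK921 value lay below every DMSO value, and the DMSO libraries were the more scattered. The fall was 1.72-fold by means, with a log2 change of -0.73 ± 0.088 (SE) and a limma adjusted p of 5.78e-05, or -0.89 relative to the median tested gene. In bulk RNA, fewer cells that express a gene and less of its RNA per cell cannot be told apart. DDC ranked 1174 of 11573 from the largest fall, and 72.1% of tested genes changed less in size. DDC (chromosome 7, 50458436 to 50565457, minus strand) overlaps FIGNL1 on the same strand by 84100 bases, with no exonic base in common, and FIGNL1 also stood lower after GK921 (35.1 ± 2.14 and 17 ± 1.62 FPKM). The antisense gene DDC-AS1 covers 114 of the 3136 exonic bases of DDC, and without strand in the counting the reads of the pair could not be told apart. GRB10, the next gene beyond DDC, had 99.52, 101.45 and 100.91 FPKM in DMSO and 102.33, 109.76 and 105.88 FPKM after GK921, so it did not share the lower values.

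TPH1, whose enzyme tryptophan hydroxylase 1 carries out the rate-limiting hydroxylation outside the brain, was close to 0 in all libraries. Its values were 0.06, 0.19 and 0.14 FPKM in DMSO and 0.08, 0.47 and 0.28 FPKM after GK921, and the groups overlapped. With the relative depths, these values are whole multiples of 1 step of 0.0602 FPKM in the deepest library, to within 0.00212 FPKM. With the lowest value assumed to be 1 fragment, the steps give 1, 3 and 2 fragments in DMSO and 1, 6 and 4 after GK921. Smaller steps, which would give more fragments, were not tried. AC055860.1, on the same strand, covers 285 of the 5626 exonic bases of TPH1, and fragments there could not be told apart. The 11 fragments against 6 correspond to a ratio of 2.14 at equal depth, with an exact 95% interval of 0.726 to 7.05. This interval rests on the assumed unit and covers counting error only. The exact two-sided permutation p was 0.3, where 0.1 is the smallest that 3 against 3 libraries allow. A difference in TPH1 was not detectable at this depth. TPH2, the hydroxylase of serotonergic neurons, was listed at 0 in all 6 libraries.

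The mRNA of the serotonin transporter was near the limit of detection. SLC6A4 had 0.09, 0.09 and 0 FPKM in DMSO and 0 in each GK921 library. If its smallest value is taken as 1 fragment, 2 DMSO libraries had 1 fragment each and no other library had any. That unit was assumed and not measured. The GK921 libraries were all at 0, so no fold is given, and the exact two-sided permutation p was 0.4. The vesicular transporter SLC18A1 and the carriers SLC22A2 and SLC6A2 were listed at 0 throughout, and SLC18A2 had 0.61 to 0.73 FPKM in DMSO and 0.31 to 0.62 FPKM after GK921. The low-affinity amine carrier SLC22A3, by contrast, was present at 25.2 ± 1.83 FPKM in DMSO and 27.9 ± 1.16 FPKM after GK921 (limma adjusted p = 0.0716), and SLC29A4, the plasma membrane monoamine transporter, at 1.46 ± 0.459 and 1.77 ± 0.433 FPKM (limma adjusted p = 0.409). Neither was called, though SLC22A3 was called higher without DMSO replicate 1 (limma adjusted p = 0.0201), and their directions turned under 1 scaling each (SLC22A3 at -0.027 with median ratios, SLC29A4 at -0.099 with quantile normalization).

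MAOB showed the largest change of the 5 tested genes, a fall in every GK921 library. Monoamine oxidase B prefers phenylethylamine and also oxidises dopamine and, less readily, serotonin. MAOB had 59.43, 58.68 and 59.47 FPKM in DMSO and 15.09, 17.37 and 18.66 FPKM after GK921. The highest GK921 value was 0.318 times the lowest DMSO value, so the groups were far apart. The fall was 3.47-fold by means, with a log2 change of -1.74 ± 0.072 (SE) and a limma adjusted p of 5.53e-08, or -1.90 relative to the median tested gene. MAOB ranked 250 of 11573 from the largest fall, and 95.6% of tested genes changed less in size.

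MAOA, whose enzyme is the oxidase that prefers serotonin, stayed near its DMSO level. It had 36.66, 34.8 and 35.3 FPKM in DMSO and 31.94, 33.15 and 35.26 FPKM after GK921. GK921 replicate 3 reached into the DMSO range and the other two lay below it. MAOA changed by -0.088 ± 0.053 (SE) on the log2 scale (limma adjusted p = 0.158), with a 95% interval from 0.866-fold to 1.02-fold. Relative to the median tested gene it was 0.25 lower, and it was called lower under each of 3 other scalings, by median ratios, upper quartiles and quantiles (log2 changes -0.26, -0.18 and -0.19, limma adjusted p = 0.00159, 0.0125 and 0.00919). Whether MAOA is called thus depends on the scale, and its fall under any of them was small beside that of MAOB.

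**Figure D1:**
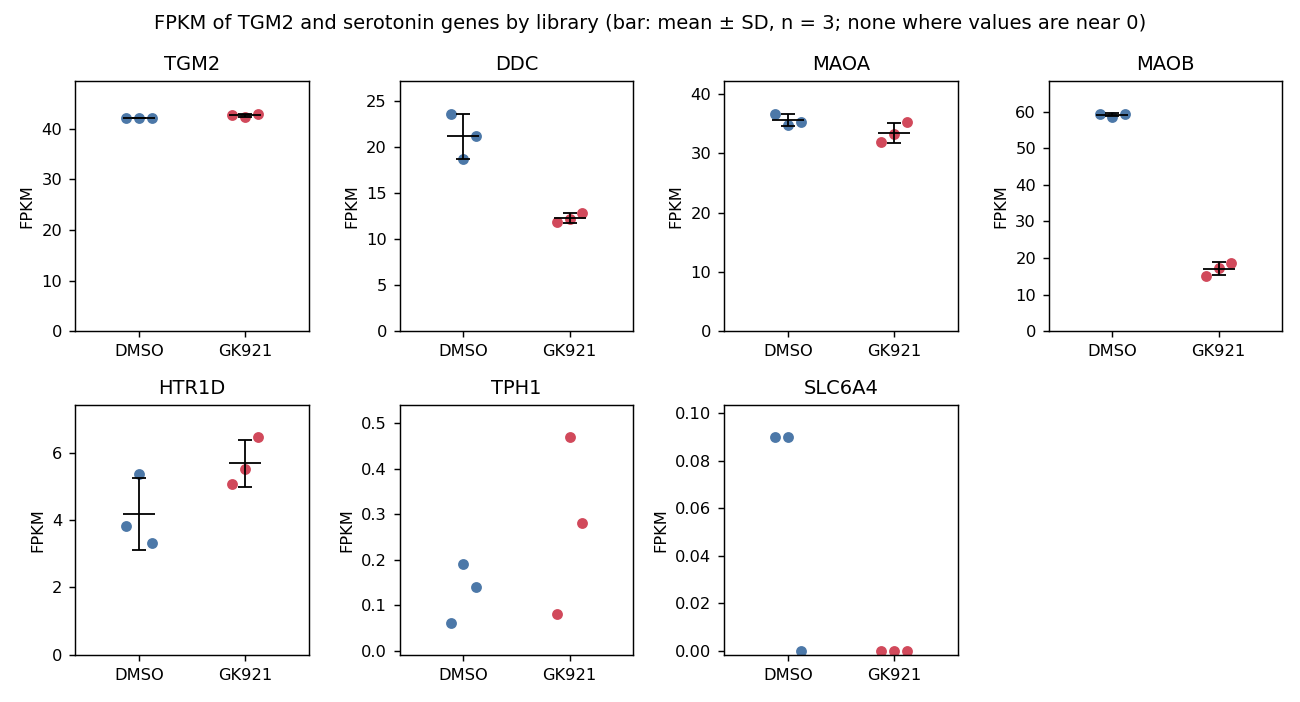
FPKM (vertical axes, from 0 or just below it, each with its own range) of TGM2 and the 6 serotonin genes in 3 DMSO (blue) and 3 GK921 (red) libraries, with mean ± SD as bars except for TPH1 and SLC6A4. MAOB went from 58.68 to 59.47 FPKM in DMSO to 15.09 to 18.66 FPKM after GK921, while TGM2 stayed between 42.07 and 42.94 FPKM.

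The balance between the 2 oxidases turned over. Per library, MAOA mRNA was 0.617, 0.593 and 0.594 times that of MAOB in DMSO and 2.12, 1.91 and 1.89 times that of MAOB after GK921. MAOB was the higher of the pair in 3 of 3 DMSO libraries and MAOA in 3 of 3 GK921 libraries. The log2 ratio of MAOA to MAOB on the log2(FPKM + 1) scale rose by 1.66, from -0.72 ± 0.031 to 0.94 ± 0.084 (SD, n = 3, exact two-sided permutation p = 0.1, the smallest this design allows). A ratio of FPKM within a library does not depend on the scaling of libraries by a factor. The log2 ratio does depend on it, through the added 1. Both show unequal change rather than stability of either gene. MAOA and MAOB together summed to 94.8 ± 1.31 FPKM in DMSO and 50.5 ± 3.45 FPKM after GK921, 1.88-fold lower, and the share of MAOB in that sum went from 62.5% ± 0.528 to 33.7% ± 1.40. DDC also fell relative to MAOA: the ratio was 0.646, 0.537 and 0.601 in DMSO and 0.370, 0.367 and 0.366 after GK921, a log2 difference of -0.64 (exact two-sided permutation p = 0.1).

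**Figure D2:**
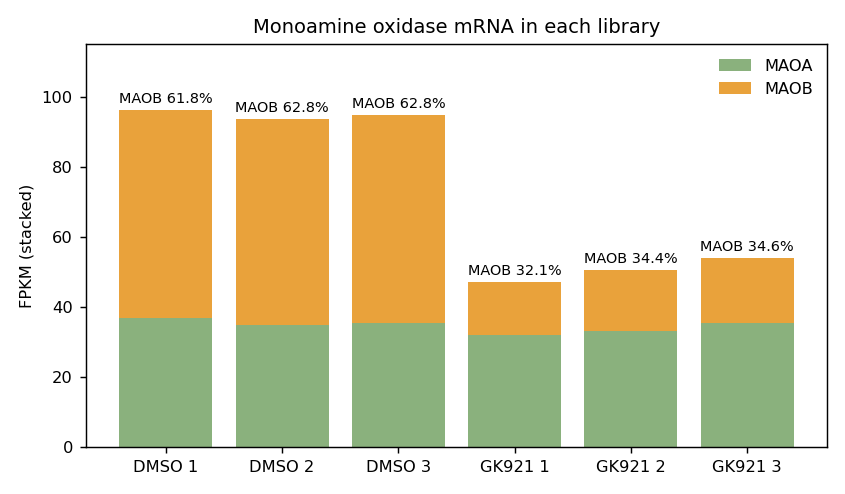
Stacked FPKM of MAOA (green) and MAOB (orange) in each library, with the MAOB share of the sum printed above each bar. The sum was 93.5 to 96.1 FPKM in DMSO and 47 to 53.9 FPKM after GK921, and the MAOB share was 61.8% to 62.8% in DMSO and 32.1% to 34.6% after GK921.

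On the far side of MAOB the next gene of the table is NDP, which encodes the secreted ligand norrin. NDP had 2.85, 1.08 and 0.94 FPKM in DMSO and was listed at 0 in all 3 GK921 libraries. It was below the expression limit and was not tested. The gap between MAOB and NDP is 66.3 kb. The order on this stretch is therefore MAOA, MAOB and NDP.

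Among serotonin receptors only HTR1D passed the expression limit, and its rise was a weak call. HTR1D (chromosome 1, 23191895 to 23194729, minus strand) had 3.83, 5.37 and 3.32 FPKM in DMSO and 5.08, 5.52 and 6.45 FPKM after GK921. The second DMSO library exceeded the first GK921 library, so the groups overlapped. On the log2 scale HTR1D rose by 0.38 ± 0.15 (SE), or 0.23 relative to the median tested gene, with a limma adjusted p of 0.0459. Its exact two-sided permutation p was 0.2. HTR1D was not called in 11 of 16 alternative settings, among them the fits without DMSO replicate 1 or 3 (limma adjusted p = 0.117 and 0.154) and without GK921 replicate 2 or 3 (0.0802 and 0.146). Of the other 16 receptor genes, 11 were listed at 0 in all libraries (HTR1A, HTR1B, HTR1E, HTR1F, HTR2A, HTR3B, HTR3C, HTR3D, HTR3E, HTR4 and HTR5A). HTR2B, a Gq-coupled receptor, had 0.28, 0.3 and 0.58 FPKM in DMSO and 0.15, 0.29 and 0.46 FPKM after GK921. HTR2C had 0.77, 0.38 and 0.34 FPKM and then 0.31, 0.23 and 0.41 FPKM, and HTR3A, HTR6 and HTR7 had at most 0.12 FPKM in any library. The HTR2B and HTR2C values overlapped between the groups.

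Levels of the 7 genes, which FPKM makes comparable per length, had a fixed order in most of its steps. In each DMSO library MAOB was highest, followed by TGM2, MAOA, DDC and HTR1D. After GK921 each library had TGM2 first, followed by MAOA, MAOB, DDC and HTR1D. Among these first 5, neighbours in either order had no overlapping values. TPH1 and SLC6A4 were last, and in the first DMSO library TPH1 (0.06) was below SLC6A4 (0.09), so this pair could not be ordered in DMSO. The change of order came from MAOB alone, which moved from the top to below MAOA.

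**Figure D3:**
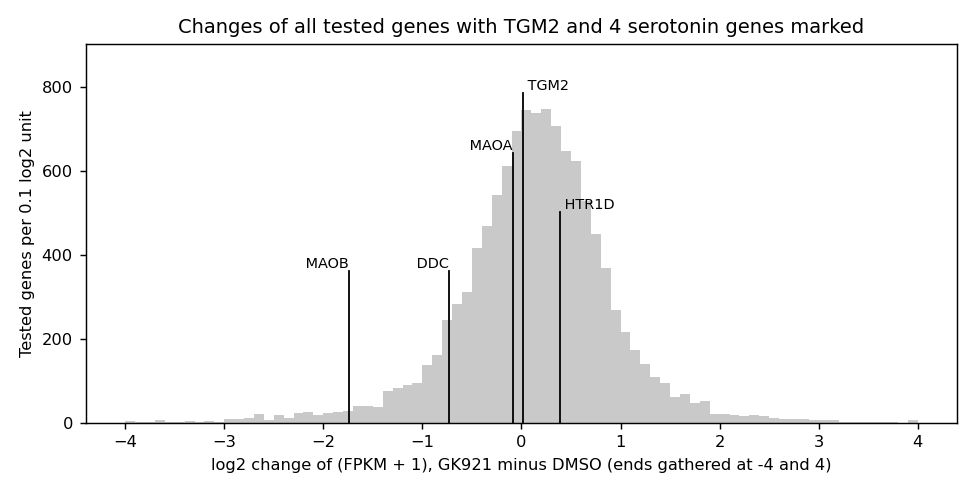
Number of the 11573 tested genes (vertical axis) by log2 change (horizontal axis), with lines at TGM2, MAOA, HTR1D, DDC and MAOB, whose heights only separate the names. TGM2 (0.017) and MAOA (-0.088) lie near the middle, DDC (-0.73) on the lower shoulder and MAOB (-1.74) in the lower tail.

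For each tested gene the nearest profiles were found by the distance between log2(FPKM + 1) values over the 6 libraries, each centred on its own mean. Since most genes differ between the groups, this distance mostly reflects the size of the change. MAOB was nearest to UGT1A6 (distance 0.106), CCND1 (0.112) and KLHL4 (0.136). UGT1A6 shares exons with other UGT1A genes, so its own level is uncertain. Their log2 changes were -1.80, -1.76 and -1.73. DDC was nearest to ARRB1 (0.124), SLC29A3 (0.134) and TOMM40 (0.144), with log2 changes of -0.74, -0.72 and -0.71. TGM2 was nearest to PSMB7 (0.0196), TRIO (0.0294) and ATG2A (0.0300), none of which was called on the deposited scale. MAOA was nearest to FMN1 (0.0330), NUTF2 (0.0530) and PDHB (0.0590), also not called. HTR1D was nearest to HIBCH (0.197), GLB1L (0.223) and NBPF9 (0.227), so no gene came as near to it as to the other 4.

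Beside MAOB, genes of aldehyde oxidation and the conjugation gene UGT1A6 were among those that fell. The list of serotonin breakdown and conversion has 14 genes, MAOA and MAOB included. Of 11 tested, 7 fell, 2 rose and 2 were not called (median log2 change -0.75 against 0.16 for all tested genes). Over all tested genes 75.9% were called and 29.2% were lower. Aldehyde dehydrogenases, which oxidise the aldehyde that monoamine oxidase forms, made up 5 of the 7 falls. ALDH1A1 had 1228, 1208 and 1218 FPKM in DMSO and 161.7, 155.3 and 158.9 FPKM after GK921, a log2 change of -2.93 ± 0.025 (SE) with a limma adjusted p of 1.88e-11. ALDH3A2 fell 2.30-fold, ALDH1B1 1.71-fold, the mitochondrial enzyme ALDH2 1.55-fold and ALDH9A1 1.18-fold. AKR1A1, an aldehyde reductase, rose 1.72-fold from 39.1 ± 1.78 to 67.2 ± 2.04 FPKM. UGT1A6, whose enzyme glucuronidates serotonin, fell 3.70-fold, with the reservation on shared exons above.

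Sulfation and melatonin genes gave little. SULT1A1 rose from 1.35 ± 0.430 to 2.52 ± 0.360 FPKM (limma adjusted p = 0.0104), a call lost with quantile normalization (0.0907). SULT1A3, a sulfotransferase gene with near-identical copies, had 0.44, 9.44 and 7.45 FPKM in DMSO and 0.7, 1.61 and 0.72 FPKM after GK921. It was not called (limma adjusted p = 0.0833), and without DMSO replicate 1 it was called lower (log2 change -2.25, limma adjusted p = 3.80e-05). AANAT, ASMT and INMT, which make melatonin or methylate amines, stayed below 1 FPKM in all libraries.

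The cofactor and precursor supply of serotonin synthesis moved in both directions, and the counts on both lists stand against 46.8% higher and 29.2% lower over all tested genes. Tryptophan hydroxylase needs tetrahydrobiopterin, and all 8 genes of its synthesis and recycling were tested, of which 4 fell, 2 rose and 2 were not called (median log2 change -0.18, and 6 fell with each of the 3 other scalings). GCHFR, the feedback regulator of the first enzyme, fell 2.32-fold and PTS 1.47-fold. GCH1, the first enzyme, rose 1.53-fold from 7.07 ± 1.39 to 10.8 ± 1.30 FPKM. Of 9 tryptophan uptake genes 5 were tested, of which 4 rose and 1 fell (median 0.62, and 3 rose with median-ratio scaling). SLC3A2, the heavy chain of the large neutral amino acid carriers, rose 2.75-fold, SLC43A2 and SLC43A1 rose 1.80-fold and 1.57-fold, and the light chain SLC7A5 fell 1.33-fold.

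Genes for readers of the serotonylated histone were called about as often as tested genes in general. Of 9 tested genes for WDR5, which binds the serotonylated tail of histone H3, and for TFIID subunits, 5 rose, 1 fell and 3 were not called (median 0.18, near that of all tested genes, of which 75.9% were called and 46.8% were higher). WDR5 fell 1.46-fold from 81.2 ± 5.37 to 55.6 ± 4.12 FPKM. TAF3, the TFIID subunit that binds methylated lysine 4 beside the serotonylated residue, rose 1.33-fold and TAF7 1.37-fold. TAF2 rose 1.21-fold, a call lost with median-ratio scaling (limma adjusted p = 0.162). With that scaling 2 of the 9 were higher and 2 lower.

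**Figure D4:**
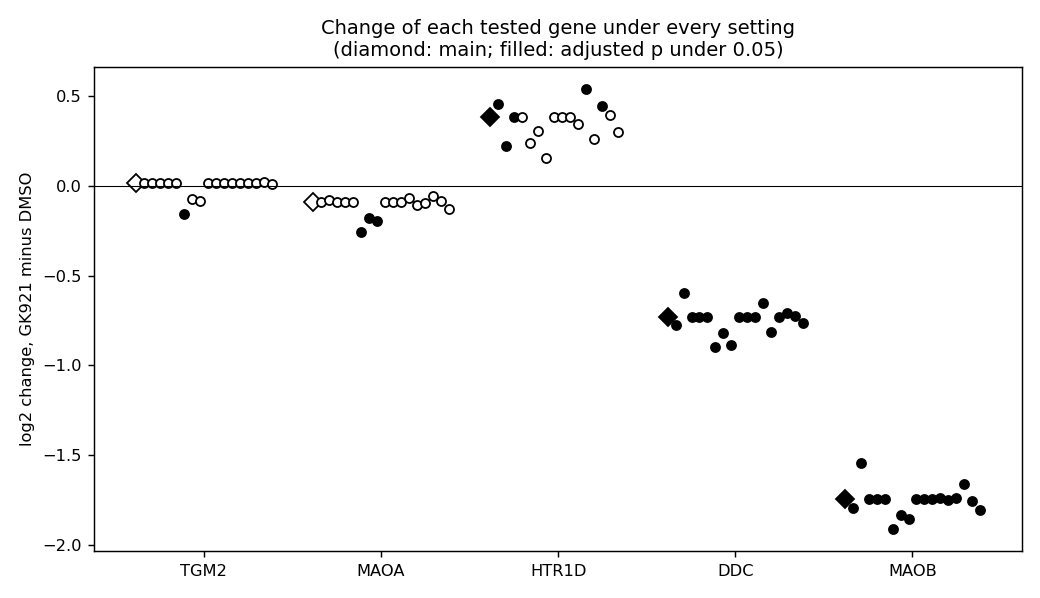
Log2 change (vertical axis) of each of the 5 tested genes under the main setting (diamond) and each alternative (circles), filled where the adjusted p was under 0.05. DDC and MAOB are filled throughout, at -0.90 to -0.59 and -1.91 to -1.55, HTR1D is filled under 5 alternatives, MAOA under 3 and TGM2 under 1.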

How the data were processed

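RNA of 6 MHCC-97H libraries was sequenced, 3 per group, with groups and replicate numbers from the sample titles. The authors deposited FPKM per gene symbol with 2 decimals, per the file headers. Named in the submitters' processing notes, with no role or order, are the build hg38 and the tools edgeR, featureCounts, HISAT2 and FastQC 0.11.5. The sources used here do not give annotation, strandedness or read totals. FPKM cannot show a change of RNA content per cell.

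Values were used as deposited. The test was limma (3.58.1, R 4.3.3) with an intensity trend, run on log2(FPKM + 1) where the mean over libraries reached 1 FPKM. Log2 changes are on this scale and understate those of low genes. Folds are ratios of mean FPKM. Single values were also compared by exact permutation of libraries. The two-sided permutation p was 0.1, the smallest possible, for TGM2, DDC and MAOB, and 0.2 for MAOA and HTR1D. In simulated data for this comparison, 50 of 11492 genes were changed per fold size. Recovery was 34% at a 1.2-fold change, 76% at 1.5-fold, 92% at 2-fold and 100% at 4-fold, and 1.95% of calls were false. In the data 75.9% of tested genes were called, a far larger share than was changed in the simulation. These rates may therefore not carry over to the data. Relative depth was found from the commonest ratio of low values in each of 15 pairs of libraries (38 to 96 genes a pair). It was recovered within 0.144% in simulated libraries, and the largest misfit of a pair in the data was 0.00833 on the log2 scale.

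The genes and the lists were chosen with earlier results of these data known. All 7 genes are named. Others were named by rule: every tested gene of the transglutaminase, synthesis, transport, breakdown and receptor lists, up to 4 called genes of each other list by size of change, and 3 nearest profiles per gene. Neighbouring and overlapping genes were added afterwards. Some genes of the lists are counted but not reported here by name. Positions came from GENCODE 29 (GRCh38), and upstream sequences from RefSeq, which held 6 of the 7 genes. Same-numbered libraries of the groups did not deviate together (correlations 0.031, 0.047 and -0.0021), and the numbers were not taken as pairs. Alternatives were the pseudocount, the expression limit, 3 scalings, the replicate block, each library left out, no trend and a test against a 1.2-fold change (treat).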

Additional observations from a re-analysis of the deposited data

How the results depend on the processing

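DDC and MAOB were called lower in 17 of 17 alternatives, at -0.90 to -0.59 and -1.91 to -1.55. TGM2 turned to -0.15 with median-ratio, -0.074 with upper-quartile and -0.085 with quantile scaling, called with the first only. The genes nearest to it turned as well: PSMB7 to -0.17 and -0.085 with median-ratio and upper-quartile scaling, and TRIO to -0.14, -0.057 and -0.076 and ATG2A to -0.14, -0.063 and -0.17 with the 3 scalings in the same order. SLC22A3 turned to -0.027 with median ratios, and SLC29A4 to -0.099 and GLB1L to -0.041 with quantile normalization. MAOA was called lower at -0.26, -0.18 and -0.19 with the 3 scalings. HTR1D lost its call at 0.38 without a filter, without the intensity trend, with the replicate block (limma adjusted p = 0.0565) and under treat, and at 0.24, 0.31 and 0.16 with the 3 scalings. Leaving out 1 library in turn gave it 0.26 to 0.54. Under treat 5730 genes were called, 3595 higher and 2135 lower. The share of calls that were rises fell with each of the 3 scalings. Calls were 4221 higher and 4374 lower with median-ratio, 4757 and 3876 with upper-quartile, and 4387 and 4071 with quantile scaling. Of 53 other named genes, 17 changed direction or call under at least 1 alternative. Of the 5 tested genes the replicate block changed no other call, and it brought calls of SLC22A3 (0.0498) and SULT1A3 (0.0303, limma adjusted p). TPH1 and SLC6A4 are limited by depth. With the smallest value of each gene assumed to be 1 fragment, TPH1 had 6 fragments in DMSO and 11 after GK921. On the same assumption SLC6A4 had 2 and 0. The median tested gene, at 0.16 as deposited, was at -0.0013 with median-ratio, 0.074 with upper-quartile and 0.025 with quantile scaling. The cause of the other shifts was not tested.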

Other observations

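Over all tested genes 75.9% were called, 46.8% higher and 29.2% lower, and the counts below are to be read against these shares. Of 10 tested genes of TGM2 partners and redox regulators, 6 fell, 3 rose and 1 was not called (median log2 change -0.44, against 0.16 for all tested genes). Fibronectin (FN1), which extracellular TGM2 binds, fell from 779.7 ± 2.25 to 298 ± 9.10 FPKM, and the integrin chain gene ITGB1 from 348 ± 3.71 to 109.9 ± 2.99 FPKM (SD, n = 3). PDIA3, a disulfide isomerase that can oxidise and switch off TGM2, rose 2.99-fold, and ADGRG1, a receptor that binds TGM2, went from 1.01 ± 0.297 to 3.47 ± 0.469 FPKM. Of 9 tested genes of polyamine enzymes and their regulators, 6 fell and 3 rose (median -0.30). The rises were those of SAT1 and SMOX, which break polyamines down (2.35-fold and 2.18-fold), and AZIN1 (1.66-fold), and the synthesis enzyme gene ODC1 fell 1.62-fold.

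On the kynurenine route, which takes most tryptophan in the liver, 3 of 6 tested genes rose, 2 fell and 1 was not called. TDO2, its first enzyme in hepatocytes, had 4.23, 3.28 and 3.23 FPKM in DMSO and 5.94, 5.65 and 7.39 FPKM after GK921, and KYAT3 rose 1.69-fold. KYNU fell 2.18-fold and AADAT 1.58-fold. IDO1 and IDO2 were listed at 0 in all libraries. Among genes of other monoamines HNMT, which methylates histamine, fell 2.38-fold, while TH and DBH were listed at 0. Of 15 tested genes of G protein coupling, 6 rose and 5 fell (3 and 7 with median-ratio scaling). The adenylyl cyclase genes ADCY3 and ADCY6 fell 2.29-fold and 1.65-fold, ADCY9 rose 1.70-fold and ARRB1, an arrestin gene, fell 1.69-fold.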
